A study of Homo sapiens with 18 samples.

Results

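Kinesins are motor proteins that use ATP to move along microtubules or to take them apart. Mitotic kinesins build the spindle, move chromosomes and cut the cell in 2, and their genes are transcribed mainly from G2 into mitosis. Transport kinesins carry vesicles, mitochondria, endosomes and signalling complexes in cells that are not dividing as well as in those that are. The kinesin genes described here were the protein-coding rows whose symbol is KIF or KIFC followed by a number and optional letters and whose mean over the 18 libraries was at least 5 normalised reads. These were 35 of the 17155 genes in the deposited table. The rule uses no fold change, but the family was chosen with earlier results of these data known. By their textbook roles, 13 are mitotic, 14 are transport and 8 are other kinesins, which regulate microtubule growth or serve cilia and hedgehog signalling.

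The libraries hold polyadenylated RNA of GM12878, an established lymphoblastoid line of B cells immortalised by Epstein-Barr virus. Each of the 5 NF-kB subunits was targeted with its own guide RNA by CRISPR. The knockouts are cRel (gene REL), p50 (NFKB1), p52 (NFKB2), RelA (RELA) and RelB (RELB), and the control carried a guide with no target. Each of the 6 groups has 3 libraries, and the question the design poses is which genes depend on which subunit. All groups received lentivirus and puromycin at 3 µg/ml for 5 days, and the labels give all of them the genotype "Wildtype LMP1". The sample titles call the 3 libraries of each group biological replicates. The labels do not say whether a knockout line is a clone or a pool, or whether its 3 libraries come from separately selected cultures. The error in each test comes from how far libraries of the same group differ. It may therefore leave out variation between separately selected cultures. The 5 knockouts share the same 3 control libraries, so their comparisons with control are not independent of one another.

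The depth was between 15.2 M and 37.5 M recovered reads per library (median 22.1 M). The mRNA of the targeted gene fell in the p50 knockout (NFKB1, log2 fold change -0.59), the p52 knockout (NFKB2, -0.44) and the RelA knockout (RELA, -0.69). Such falls were not confined to the targeted gene. In the RelA knockout 4 of the 5 subunit genes fell, where 2.41% of all genes did. NFKB1 was at -0.46 there, and NFKB2 averaged 6671 normalised reads, against 8566 in control. NFKB1 also fell in the knockout labelled RelB (-0.29), a call lost under quantile normalization (adjusted p = 0.053, limma). REL averaged 1298 normalised reads in the knockout labelled cRel against 1376 in control, a difference that did not pass the test (log2 fold change -0.02, adjusted p = 0.960, limma). The control libraries were uneven at 1554, 1717 and 856, and without control library 3 the control mean was 1636 and the log2 fold change -0.33 (adjusted p = 0.312). With control library 3, p52 library 3 and RelA library 2 all left out, this value passed the test (adjusted p = 0.0038, limma). REL fell in the knockout labelled RelB (924, 1009 and 881 normalised reads), a call lost under 4 of the 31 other settings (adjusted p = 0.056 to 0.17, limma). It averaged 1099 in p50, 1539 in p52 and 1660 in RelA, none of them called. RELB was higher in the knockout labelled RelB than in control (log2 fold change 0.31, adjusted p = 0.00017, limma). It was also higher in the knockout labelled cRel (0.38), in p52 (0.36) and in p50 (0.23), and lower in RelA (-0.82). Both knockouts are called cRel-labelled and RelB-labelled below. The 8 B-cell markers summed to between 47557 and 61391 normalised reads in every library. Of the markers of other cell types, CD3D, CD14, S100A8, S100A9, COL1A2 and COL3A1 had means under 5. The T-cell markers CD3E, CD4 and CD247 had means of 18.5, 11.99 and 9.64 normalised reads. The NK-cell marker NKG7, the myeloid markers CSF1R and ITGAM, the collagen COL1A1 and the epithelial marker CDH1 were present at means of 443, 523, 188, 1199 and 209. In those 3 libraries (control 3, p52 3 and RelA 2) the deviation from the group mean fell with transcript length more than elsewhere, with Spearman correlations across genes of -0.41, -0.34 and -0.28. They are called length-shifted below, and the calls that change with all 3 left out are given with both values beside the counts over all 35 kinesins.

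Values below are the deposited normalised read counts, and fold changes are knockout over control on the log2(value + 1) scale with their standard errors (SE). The test was limma, fitted over all 13252 genes with a mean of at least 5, and genes whose p stayed under 0.05 after Benjamini-Hochberg adjustment count as called. Differences that passed are written as risen or fallen.

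To compare genes with one another, counts were divided by the kilobases of annotated exon. On this per-length scale the most abundant kinesins were KIF11, the motor that pushes spindle poles apart, at a mean of 776 normalised reads per kilobase, and KIF5B, a kinesin-1 heavy chain that hauls organelles outward, also at 776. KIF2C, which depolymerises microtubules at kinetochores, followed at 759. The highest of the other kinesins was KIF2A, a microtubule depolymerase, at 587 per kilobase, followed by KIF21B, which restrains microtubule growth, at 215. KIF1C, a kinesin-3 vesicle motor, was the second transport kinesin at 478. Levels per kilobase spanned nearly 3 orders of magnitude, down to 1.11 for KIF6, a motor of motile cilia. The group means of KIF16B, a motor of early endosomes, lay between 39.6 and 41.6 per kilobase, the narrowest range relative to its level among the 35.

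**Figure D1:**
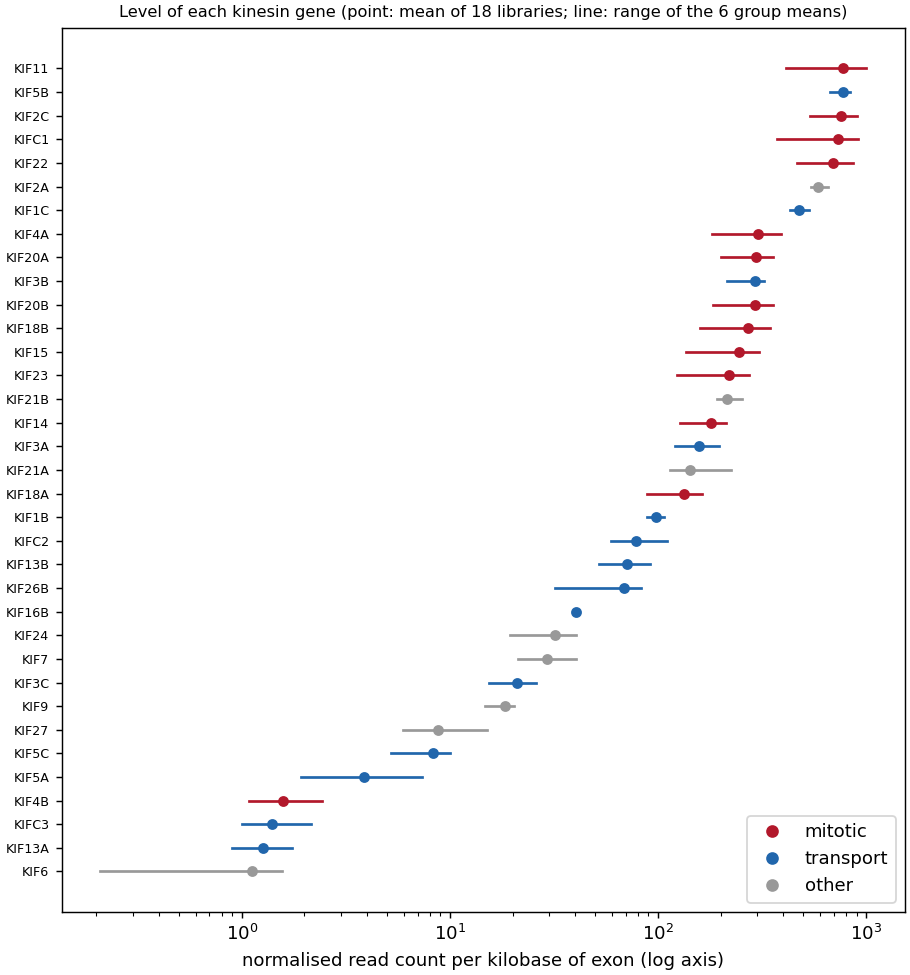
Level of each of the 35 kinesin genes in normalised reads per kilobase of exon on a log axis, with a point for the mean of 18 libraries and a line for the range of the 6 group means, coloured by role. Mitotic and transport kinesins both reach the top of the scale, with KIF11 and KIF5B at 776, and the lowest gene is KIF6 at 1.11.

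The membership threshold was a mean of 5. Just inside it stood KIF4B with 6.91 normalised reads, and just outside it KIF26A with 4.18, followed by KIF17, KIF1A and KIF19. KIF26A, the paralogue of KIF26B, had 15.5, 22.0 and 15.8 normalised reads in the p52 libraries and at most 4.37 in any other library.

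The mitotic kinesins were lower in 3 of the 5 knockouts. Against control, 12 of 13 fell in the RelB-labelled knockout, 12 of 13 in the p52 knockout and 10 of 13 in the p50 knockout, and none rose in any knockout. In the same comparisons 32.7%, 24.7% and 18.2% of all genes tested fell, and 1.8% and 2.41% fell in the cRel-labelled and RelA knockouts. The median log2 fold change of the 13 was -1.0 in the RelB-labelled, -0.52 in the p52 and -0.32 in the p50 knockout, where the medians of all genes tested were 0.01, 0.02 and 0.00. In the cRel-labelled and RelA knockouts no mitotic kinesin was called by limma, by edgeR or by DESeq2, and 0 and 2 of the 13 had an unadjusted p under 0.05 in limma. Their medians there were 0.03 and -0.09. These counts depend on how roles were assigned. KIF2A, a microtubule depolymerase like KIF2C, is counted with the other kinesins and not among the 13. It rose in the RelB-labelled knockout (3120, 3127 and 3126 normalised reads, against 2838, 2799 and 2513 in control), a call lost without control library 3 (adjusted p = 0.059, limma). The 6 monocyte markers in the table summed to 908 to 982 normalised reads in the RelB-labelled, 837 to 944 in the p52 and 825 to 904 in the p50 libraries, against 516 to 538 in control, and 2 of the 3 tested rose in each of these knockouts. In the same list CD14, S100A8 and S100A9 had means of 1.22, 2.96 and 2.76 normalised reads. The T- and NK-cell markers summed to 688 to 750 in the RelB-labelled, 494 to 562 in the p52 and 436 to 466 in the p50 libraries, against 424 to 556 in control. The fibroblast and epithelial markers summed to 1660 to 1980 in the RelB-labelled, 1529 to 1700 in the p52 and 979 to 1305 in the p50 libraries, against 1343 to 1511 in control. The B-cell markers summed to 56100 to 61391 in the RelB-labelled, 53505 to 54975 in the p52 and 47557 to 51795 in the p50 libraries, against 50959 to 52647 in control. The part of these markers in the result was not tested.

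The promoters of these genes are printed because the mitotic kinesins moved together and many promoters of G2 and mitosis genes carry a known pair of elements. The CHR element (TTTGAA or TTTAAA) is bound by MuvB complexes, which repress such genes in resting cells and activate them with B-MYB and FOXM1 in dividing cells. The CCAAT box (CCAAT) is bound by NF-Y. Both were searched on both strands in the first promoter window that the RefSeq table lists for a gene, which runs from 250 bases before a start site to 50 after it, on GRCh38.p14. For KIFC1, KIF24, KIF7 and KIF5C that site lies inside the RefSeq gene record and not at its end. Each line below gives the 120 bases before the start, 5′ to 3′ on the gene's strand. Capitals mark the CHR element and the CCAAT box, which reads ATTGG or TTCAAA where the match is on the other strand. The first 4 are mitotic kinesins and the last 2, KIF1C and KIF3A, are transport kinesins that hold neither motif. They were picked by hand and do not stand for all windows of their role.
KIF11, chr10:92593010-92593129, plus strand: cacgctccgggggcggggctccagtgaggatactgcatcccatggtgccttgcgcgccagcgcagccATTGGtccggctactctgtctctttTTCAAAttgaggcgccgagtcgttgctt
KIF4A, chrX:70289984-70290103, plus strand: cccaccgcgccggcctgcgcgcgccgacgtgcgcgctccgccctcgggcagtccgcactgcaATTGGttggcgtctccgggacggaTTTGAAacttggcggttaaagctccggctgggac
KIF23, chr15:69414229-69414348, plus strand: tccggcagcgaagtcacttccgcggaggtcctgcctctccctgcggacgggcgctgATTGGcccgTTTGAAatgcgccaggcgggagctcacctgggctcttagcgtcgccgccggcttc
KIF20A, chr5:138178992-138179111, plus strand: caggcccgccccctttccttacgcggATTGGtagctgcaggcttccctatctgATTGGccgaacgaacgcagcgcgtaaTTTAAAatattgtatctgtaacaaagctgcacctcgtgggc
KIF1C, chr17:4997830-4997949, plus strand: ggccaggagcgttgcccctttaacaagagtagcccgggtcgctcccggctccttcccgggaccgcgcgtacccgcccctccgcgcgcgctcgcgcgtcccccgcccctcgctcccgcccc
KIF3A, chr5:132737547-132737666, minus strand: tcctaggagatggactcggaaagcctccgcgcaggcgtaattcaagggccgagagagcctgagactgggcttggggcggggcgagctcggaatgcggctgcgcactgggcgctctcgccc

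In the 4 mitotic windows the first base of the CHR element lay 28 (KIF11), 34 (KIF4A), 55 (KIF23) and 41 bases (KIF20A) before the start, with a CCAAT box upstream of it, and the motifs did not overlap. Promoters were listed for 28 of the 35 kinesins, and KIF27, KIF21B, KIF5A, KIFC3, KIFC2, KIF13B and KIF26B were not among them. A CHR element was found in 12 of 13 mitotic kinesins, the exception being KIF22, and in 2 of 15 transport and other kinesins, KIF5B and KIF16B. It is present in 24.3% of all 27305 promoters of the same length and in 16.4% of the 9854 promoters of genes tested. A CCAAT box was found in 11 of 13 mitotic kinesins, the exceptions being KIF15 and KIF2C, and in 5 of the 15. It is present in 35.7% of all promoters and in 36.9% of those of genes tested. Both motifs together were found in 10 of 13 mitotic kinesins and in KIF5B among the 15. They were found in 9.49% of all promoters and in 6.73% of those of genes tested. Leaving out KIFC1, a CHR element was found in 11 of 12 and both motifs in 9 of 12 mitotic kinesins. In KIFC1, KIF20B, KIF18B and KIF4B every CHR match begins after the start. KIF4B, a retrocopy of KIF4A, is counted as a gene of its own. More than 1 window is listed for KIF1B, KIF22, KIF5C, KIF6 and KIF9. No other window of these 5 holds a CHR element, and KIF5C has a CCAAT box in its second window only. The consensus sequence of NF-kB sites was in none of the 28 windows, in 10.8% of all promoters and in 12.9% of those of genes tested. A match is a description of these letters in this window and shows no binding.

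KIF11 had 2125, 1923 and 1970 normalised reads in the RelB-labelled libraries, 2976, 2724 and 2688 in the p52 libraries and 3532, 3277 and 3465 in the p50 libraries. It had 4957, 4727 and 4715 in the cRel-labelled libraries, 4828, 4676 and 5104 in the RelA libraries and 4850, 5046 and 4323 in the control libraries. The RelB-labelled, p52 and p50 libraries formed 3 separate steps below control with no overlap, and the cRel-labelled and RelA libraries lay within or beside the control range. Its log2 fold changes were -1.24 ± 0.06 in the RelB-labelled (adjusted p = 3.2e-13, limma), -0.76 in the p52 (4.9e-09) and -0.47 in the p50 knockout (1.1e-05), so the RelB-labelled mean was 42.3% of the control mean.

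KIFC1, a minus-end directed motor that bundles spindle microtubules, had the lowest log2 fold change of the mitotic kinesins in the RelB-labelled knockout, -1.29 ± 0.06 (adjusted p = 1.2e-13, limma). It had 1235, 1227 and 1300 normalised reads in the RelB-labelled libraries, 2333, 2030 and 2062 in p52, 2378, 2140 and 2248 in p50, and 2935, 3088 and 3166 in control. The p52 and p50 ranges overlapped each other and lay below every control. KIF15, which backs up KIF11 in holding the spindle bipolar, had 735, 708 and 712 in the RelB-labelled libraries, against 1617, 1755 and 1478 in control (log2 fold change -1.17, adjusted p = 1.4e-12, limma). KIF23, which with RACGAP1 forms the centralspindlin complex of the midzone, had 881, 753 and 793 in the RelB-labelled libraries, against 1694, 1719 and 1667 in control (-1.07, 2.2e-12). In both genes every RelB-labelled library lay far below the lowest control, with the p50 and p52 libraries between them. KIF11, KIFC1, KIF15 and KIF23 were the 4 kinesins with the smallest p in the limma F-test among the 5 knockouts, which does not use the control.

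KIF18B, which shortens astral microtubules, fell by 0.79 in the p52 knockout on the log2 scale, the lowest mitotic value there, and by 1.12 in the RelB-labelled knockout. It had 1136, 934 and 758 normalised reads in the p52 libraries and 1666, 1603 and 1553 in the control libraries. It also fell in the p50 knockout (-0.32, adjusted p = 0.034, limma), where the 3 libraries were uneven at 1551, 1123 and 1215. That call was lost without p50 library 2 (-0.23, adjusted p = 0.19) or 3, without control library 1 or 2 and under quantile normalization, with adjusted p of 0.068 to 0.19. KIF4A, a chromokinesin that also organises the midzone, fell by 0.38, 0.64 and 1.00 in the p50, p52 and RelB-labelled knockouts.

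In the RelB-labelled knockout the remaining called mitotic kinesins fell by less than KIF11, KIFC1, KIF15 and KIF23. KIF22, a chromokinesin that pushes chromosome arms outward, fell by 0.33, 0.62 and 0.89 on the log2 scale in the p50, p52 and RelB-labelled knockouts. KIF2C fell by 0.27, 0.40 and 0.76. KIF20B, a motor of cytokinesis, fell by 0.27, 0.48 and 0.89. KIF20A, which brings Aurora B to the midzone, fell by 0.30, 0.42 and 0.78, and its p50 value was -0.18 (adjusted p = 0.13) without p50 library 2. KIF18A, which damps chromosome oscillation, and KIF14, which recruits citron kinase in cytokinesis, were called in the p52 (-0.45 and -0.33) and RelB-labelled knockouts (-0.79 and -0.65). In the p50 knockout these 2 genes had log2 fold changes of -0.19 and -0.22 that did not pass, and KIF14 was called there (-0.35, adjusted p = 0.0019, limma) with the length-shifted libraries left out. KIF14 had 1579, 1605 and 1211 in control, where library 3 is 1 of the length-shifted ones, and without control library 2 its p52 value was -0.26 (adjusted p = 0.052). With the 3 length-shifted libraries left out, 11 of 13 mitotic kinesins fell in the p50, 12 in the p52 and 12 in the RelB-labelled knockout. KIF4B, a retrocopy of KIF4A of near-identical sequence, had 1.91 to 14.6 normalised reads and was called in no knockout, and its few reads may partly belong to KIF4A.

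**Figure D2:**
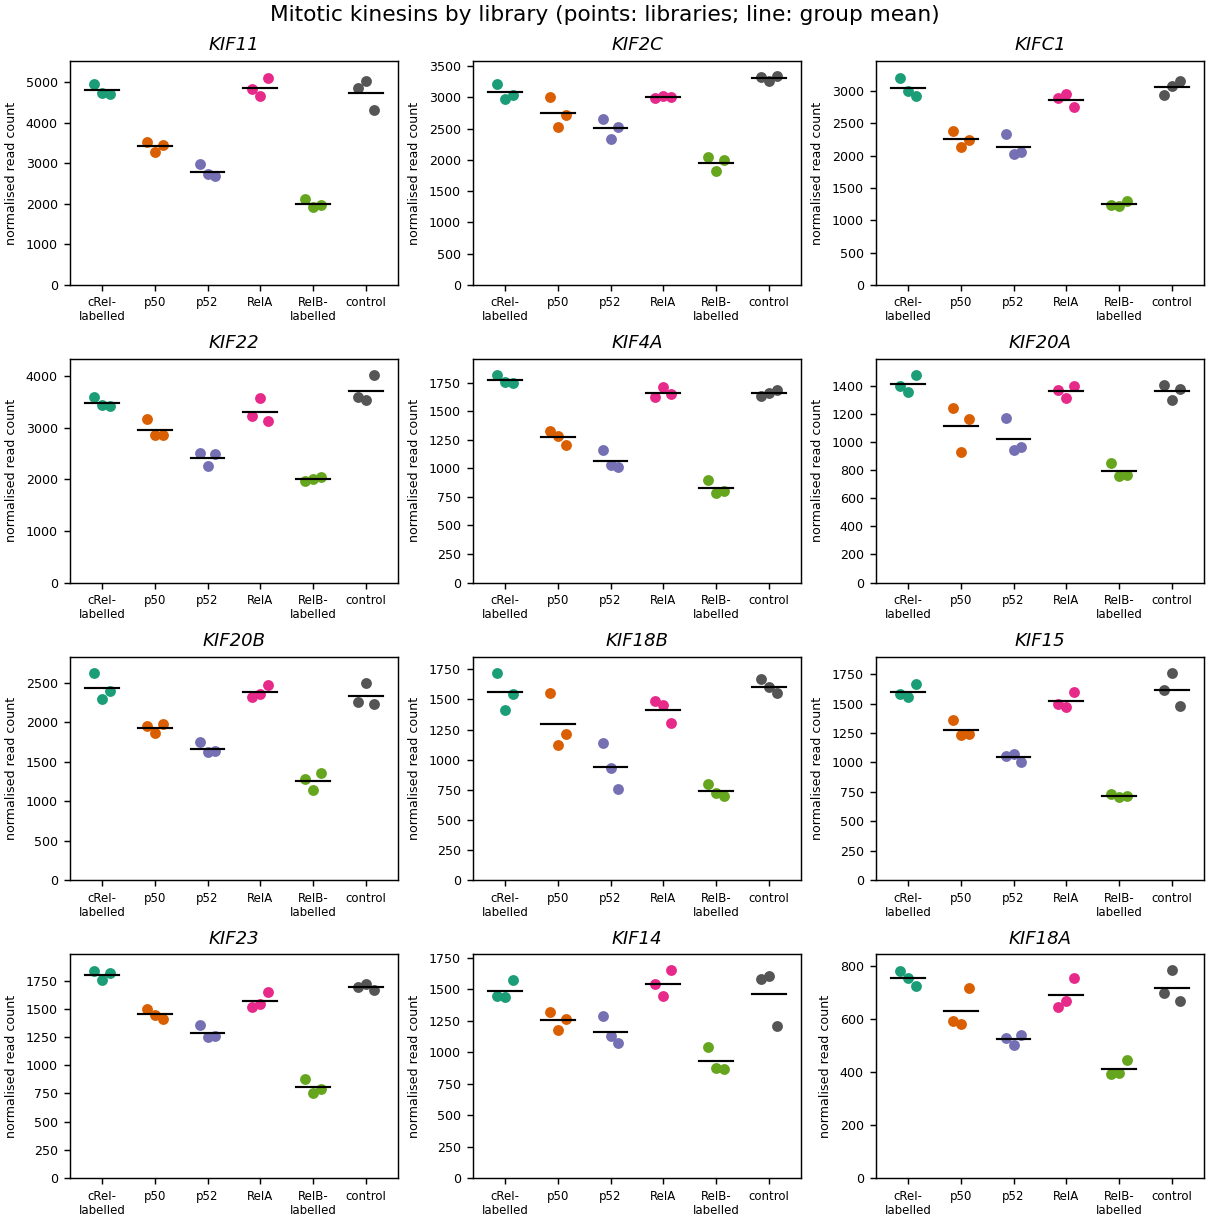
Normalised read count of the 12 mitotic kinesins other than KIF4B in each of the 18 libraries, with the 5 knockouts left of control, a point per library and a line for the group mean. In every panel the RelB-labelled mean is lowest, then come the p52 and the p50 means, as for KIF11 at 2125, 1923 and 1970 in the RelB-labelled libraries against 4850, 5046 and 4323 in control.

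In the 12 mitotic kinesins other than KIF4B the group means were ordered RelB-labelled below p52, p52 below p50, and p50 below the other 3 groups. KIF4B averaged 4.72 in RelB-labelled, 4.89 in p52 and 5.02 in p50 normalised reads, differences within its spread, and on the log2 scale its p50 value was the lower of the last 2 (-0.05, p50 minus p52). Direct tests between knockouts addressed each step. By limma 12 of 13 were called higher in p52 than in the RelB-labelled knockout, where 22.6% of all genes tested were higher in p52. In KIF18B, 1 of these, the libraries of the 2 groups overlapped. In the same test 7 of 13 were called higher in p50 than in p52, where 10.3% of all genes were higher in p50. With the length-shifted libraries left out 6 were called, when KIF20B had 0.20 (adjusted p = 0.052) in place of 0.21 (0.031). The 6 that missed the threshold in that pair included KIFC1, with a log2 difference of 0.08 (p50 minus p52, adjusted p = 0.44, limma). The cRel-labelled and RelA knockouts differed in KIF23 alone of the 13 (0.20, cRel-labelled minus RelA, adjusted p = 0.048), where 10.4% of all genes differed, and that call was lost with the length-shifted libraries left out (0.19, adjusted p = 0.085, limma).

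Summed over the 13 mitotic genes, the libraries held 14268, 13132 and 13745 normalised reads in the RelB-labelled group, 19902, 17825 and 18016 in p52 and 22934, 20441 and 21484 in p50. The cRel-labelled libraries held 28177, 26469 and 27053, the RelA libraries 25930, 26201 and 26481, and the control libraries 27265, 27848 and 26731. The group mean was 50.3% of the control mean in RelB-labelled, 68.1% in p52, 79.2% in p50, 99.8% in cRel-labelled and 96.1% in RelA. The summed transport kinesins stayed between 95.6% and 104% of the control mean in all 5 knockouts. A sum weights abundant genes most, so rises and falls of single transport genes do not show in it. In bulk RNA, fewer cells in mitosis and less of these RNAs in each mitotic cell cannot be told apart.

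**Figure D3:**
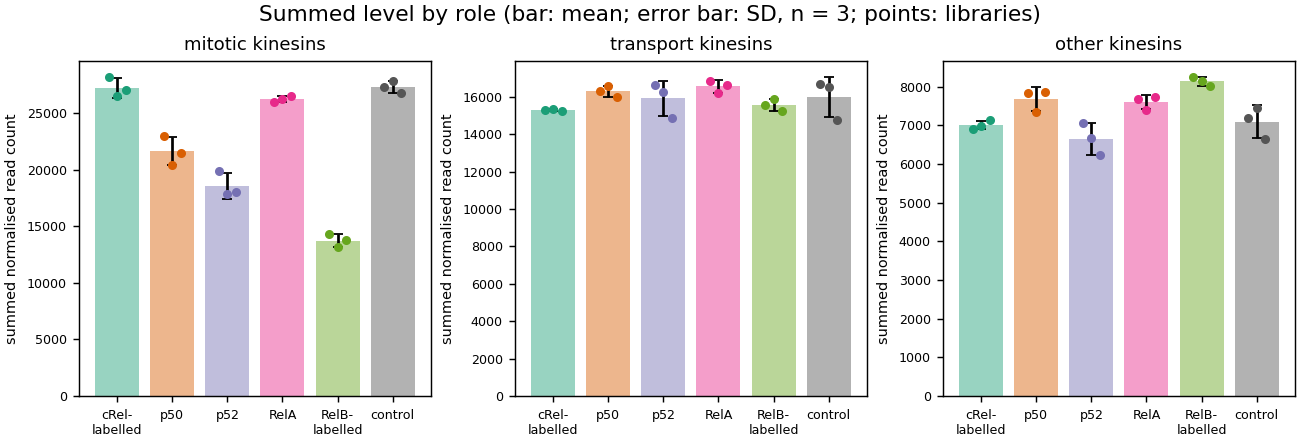
Summed normalised read count of the mitotic, transport and other kinesins, with bars for group means, error bars for SD (n = 3) and points for libraries, the 5 knockouts left of control. The mitotic sum is 50.3% of the control mean in the RelB-labelled group, 68.1% in p52 and 79.2% in p50, while the transport sum lies between 95.6% and 104%.

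The proteins that mitotic kinesins work with were counted from a list of 36 spindle and cytokinesis genes. Of these, 35 fell in the RelB-labelled, 33 in the p52 and 29 in the p50 knockout, with medians of -0.92, -0.50 and -0.38 on the log2 scale, where 32.7%, 24.7% and 18.2% of all genes fell. CENPE, a kinetochore kinesin whose symbol lies outside the naming rule, is in this list and had 1640, 1257 and 1394 normalised reads in the RelB-labelled libraries, against 2949, 3147 and 2696 in control. CCNB1, the cyclin of mitotic entry, fell by 1.37 in the RelB-labelled knockout. AURKA, the spindle-pole kinase, fell by 1.13 there and by 0.72 in the p52 knockout. HMMR, a spindle-assembly factor, fell by 0.72, 0.80 and 1.30 in the p50, p52 and RelB-labelled knockouts. In the p50 knockout BUB1, a checkpoint kinase, fell by 0.53 and CCNB1 by 0.52, and in the p52 knockout TPX2, which activates AURKA, fell by 0.60. By limma 1 of the 36 was called in the RelA knockout, BUB1, which rose by 0.38 (adjusted p = 0.00066), while edgeR called 1 as higher and DESeq2 1 as higher and 1 as lower. None was called in the cRel-labelled knockout by limma or edgeR, 1 fell by DESeq2, and 6 had an unadjusted p under 0.05 in limma.

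Regulators known to act on such promoters were counted from a second list. Of 22 DREAM, MuvB and E2F genes, 14 fell and 4 rose in the RelB-labelled knockout, 14 fell and 3 rose in p52, and 12 fell and 1 rose in p50. Of all genes, 32.7% fell and 32.6% rose in RelB-labelled, 24.7% fell and 23.8% rose in p52, and 18.2% fell and 16.2% rose in p50. The medians of the 22 were -0.43 in RelB-labelled, -0.43 in p52 and -0.20 in p50. MYBL2, which encodes B-MYB, had 3069, 3312 and 3172 normalised reads in the RelB-labelled libraries, against 8407, 9032 and 9951 in control (log2 fold change -1.52, adjusted p = 6.8e-13, limma). It also fell by 0.91 in p52 and by 0.63 in p50. E2F2, an activator of S-phase genes, fell by 1.52, 0.94 and 0.57 in the RelB-labelled, p52 and p50 knockouts, TFDP1, its DNA-binding partner, by 0.44 and 0.23 in p52 and p50, and FOXM1 by 1.04 in the RelB-labelled knockout. RB1, which restrains E2F factors, rose in the cRel-labelled (0.66) and RelA knockouts (0.68) and fell in p50 (-0.56), p52 (-0.59) and RelB-labelled (-0.55). Its RelA call was lost with the length-shifted libraries left out (0.57, adjusted p = 0.096, limma) and without control library 1 (0.052). The p50 call of TFDP1 was lost under quantile normalization (adjusted p = 0.24), and TFDP2 rose in the RelA knockout (0.28). TFDP2 averaged 2011 normalised reads there, 1941 in p50, 1973 in p52, 1928 in RelB-labelled and 1649 in cRel-labelled, against 1654 in control. FOXM1 averaged 1516 in p50 and 1227 in p52, against 1981 in control, and TFDP1 6189 in RelB-labelled, against 8425.

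The DNA replication list, whose genes act before mitosis, showed the same ordering. All 25 tested members fell in the RelB-labelled and the p52 knockout and 23 in the p50 knockout, with medians of -0.95, -0.65 and -0.41, where 32.7%, 24.7% and 18.2% of all genes fell. CDC6, which loads the replicative helicase, fell by 1.45, 0.94 and 0.58 in the RelB-labelled, p52 and p50 knockouts. CDC45, a subunit of that helicase, fell by 1.48, 1.06 and 0.59, and RRM2, which makes deoxynucleotides, by 1.29, 0.95 and 0.77. In the cRel-labelled knockout GINS3, another helicase component, fell (-0.25, adjusted p = 0.044, limma), a call lost under 16 of the 31 other settings (adjusted p = 0.050 to 0.19), and in the RelA knockout no member was called by limma, edgeR or DESeq2, with 2 at an unadjusted p under 0.05 in limma.

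Among all 35 kinesins, 28 were called in the RelB-labelled knockout (9 rose and 19 fell, where 65.3% of all genes were called), 21 in p52 (5 rose and 16 fell, 48.5%) and 17 in p50 (6 rose and 11 fell, 34.5%). In the cRel-labelled knockout 3 were called (2 rose and 1 fell, 5.71%), and in the RelA knockout 1 rose (5.08%). The F-test among the 5 knockouts called 30 of 35, where 76.1% of all genes were called. The 5 it did not call were KIF4B, KIF1B, KIF16B, KIF5C and KIFC3. Each of the 10 direct pairs of knockouts was tested in all 35 kinesins, and 193 of these tests were called, where 41.3% of the tests over all genes were.

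With the 3 length-shifted libraries left out, 2 kinesins were called in the cRel-labelled, 18 in the p50 and 22 in the p52 knockout. In the RelA knockout 1 was called, in the RelB-labelled 30, in the F-test 31 and over the direct pairs 199 tests. The shares of all genes given above belong to the fit with all libraries and not to this one. The lost calls were KIF13B in cRel-labelled (0.21, adjusted p = 0.19), KIF3C in p50 (0.37, 0.066) and KIFC3 in p52 (0.91, 0.11). The calls gained in p50 were KIF5B (-0.20, against -0.14 with all libraries) and KIF14 (-0.35, against -0.22). In p52 they were KIF5B (-0.16, against -0.14) and KIF1C (0.16, against 0.12), and in RelB-labelled KIF13B (-0.22, against -0.09) and KIF21B (-0.23, against -0.15). In the F-test KIF1B was gained (adjusted p = 0.025, against 0.28).

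**Figure D4:**
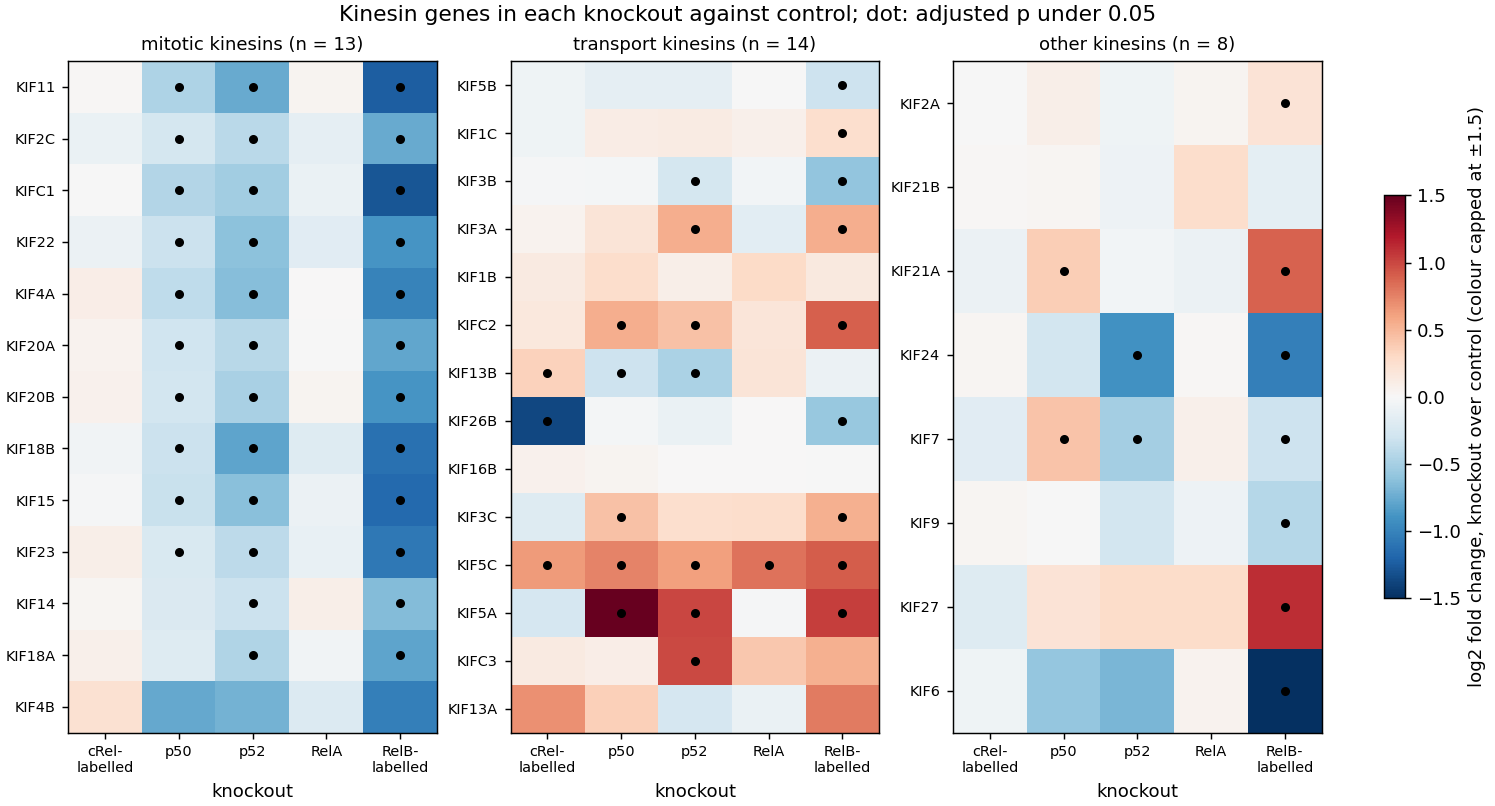
Log2 fold change of each knockout over control for the 35 kinesin genes by role, with colours capped at 1.5 in either direction and a dot where the adjusted p was under 0.05. The mitotic panel is blue in the p50, p52 and RelB-labelled columns, with KIFC1 at -1.29 in the RelB-labelled column, while the transport and other panels hold both colours.

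Transport kinesins moved in both directions. In the RelB-labelled knockout 6 of 14 rose and 3 fell, in p52 5 rose and 2 fell, in p50 4 rose and 1 fell, and their median log2 fold changes were 0.39, 0.10 and 0.15. In the cRel-labelled knockout 2 rose and 1 fell, and in the RelA knockout 1 rose, with medians of 0.06 and 0.04. Of all genes tested, 32.6% rose in the RelB-labelled, 23.8% in the p52, 16.2% in the p50, 3.92% in the cRel-labelled and 2.66% in the RelA knockout. In the same order, 32.7%, 24.7%, 18.2%, 1.8% and 2.41% of all genes fell.

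KIF26B stood lowest in the cRel-labelled knockout. The protein is an atypical kinesin that binds microtubules without the usual ATPase activity and acts downstream of WNT5A and its receptors ROR1 and ROR2. It had 472, 458 and 446 normalised reads in the cRel-labelled libraries, 786, 889 and 720 in RelB-labelled, 1271, 1108 and 947 in p52, 1356, 1059 and 1077 in p50, 1267, 1111 and 1189 in RelA and 1291, 1180 and 1082 in control. The cRel-labelled libraries lay below every other library, the RelB-labelled libraries came next, and the remaining groups overlapped one another. The log2 fold change was -1.36 ± 0.10 in the cRel-labelled knockout (adjusted p = 1.3e-08, limma), the 18th lowest of the 13252 genes tested in that comparison. In the RelB-labelled knockout it was -0.57 ± 0.10 (adjusted p = 4.9e-05).

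Direct tests set the cRel-labelled knockout below each other knockout for KIF26B. The log2 differences, cRel-labelled minus the other, were -1.33 against p50, -1.26 against p52, -1.37 against RelA and -0.79 against RelB-labelled, all called by limma with adjusted p at or below 6.8e-07. Of all genes tested, 58 (0.438%) were lower in the cRel-labelled knockout than in control and in each of the other 4 knockouts. The p50, p52 and RelA knockouts had log2 fold changes against control of -0.03, -0.10 and 0.01, none of them called. No other kinesin fell in the cRel-labelled knockout. The B-cell markers summed to 57198 to 60999 normalised reads in the cRel-labelled libraries, against 50959 to 52647 in control. The 6 T- and NK-cell markers in the table summed to 338 to 370 in the cRel-labelled libraries, against 424 to 556 in control, with CD3D at a mean of 0.37. The 6 monocyte markers summed to 564 to 655 in the cRel-labelled libraries, against 516 to 538 in control. The part of these markers in the KIF26B result was not tested.

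The 5 genes most like KIF26B were found by the correlation of log2 values over the 18 libraries, among 10567 genes with a mean of at least 50. They were ECE1 (Pearson r = 0.936), GIMAP6 (0.906), GNG2 (0.862), FAM102B (0.841) and SIRPA (0.824). The libraries fall into the 6 groups, so these values describe shared group differences and carry no test. These genes differ in how they stood to control. SIRPA, an inhibitory surface receptor, had 240, 242 and 230 normalised reads in the cRel-labelled and 204, 300 and 286 in the RelB-labelled libraries, against 548, 472 and 528 in control. The log2 difference from control was -0.51 in cRel-labelled and -0.25 in RelB-labelled for ECE1, a membrane peptidase, -0.48 and -0.12 for GIMAP6, -0.23 and -0.13 for GNG2 and -1.07 and -0.45 for FAM102B. Of these, both GNG2 values (adjusted p = 0.052 and 0.099, limma) and the RelB-labelled value of GIMAP6 (0.091) did not pass. Unlike KIF26B, FAM102B was also lower in p52 (-0.50) and p50 (-0.29), and in p50 SIRPA (0.31) and GIMAP6 (0.21) were higher than control.

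Of 21 genes of the WNT5A pathway tested, 3 rose and 0 fell in the cRel-labelled knockout by limma, edgeR and DESeq2, where 3.92% and 1.8% of all genes did, with 10 at an unadjusted p under 0.05. In the p50 knockout 7 rose and 1 fell (16.2% and 18.2% of all genes), and in p52 9 rose and 1 fell (23.8% and 24.7%). In RelA 2 rose and 1 fell (2.66% and 2.41%), and in RelB-labelled 11 rose and 6 fell (32.6% and 32.7%). The medians of the 21 were 0.10 in cRel-labelled, 0.24 in p50, 0.21 in p52, -0.05 in RelA and 0.23 in RelB-labelled. WNT5A itself, the ligand, had 1085, 1054 and 1060 normalised reads in the cRel-labelled libraries and 552, 489 and 634 in the RelA libraries, against 776, 784 and 672 in control. It rose in the cRel-labelled (0.52), p50 (0.55) and p52 knockouts (0.53) and fell in RelA (-0.42). VANGL2, a planar-polarity membrane protein, rose in the cRel-labelled (0.57), p50 (0.56), p52 (1.07) and RelA knockouts (0.38). In the RelB-labelled libraries VANGL2 had 424, 385 and 379 normalised reads, against 253, 291 and 244 in control, and WNT5A had 868, 905 and 844. CELSR1, a polarity cadherin, rose in cRel-labelled (0.91) and p52 (1.24). The Frizzled receptors FZD3 in p50 (0.50) and FZD7 in RelA (0.42) rose. With the length-shifted libraries left out the RelA values of FZD7 and VANGL2 were 0.28 (adjusted p = 0.22) and 0.33 (0.092, limma), and leaving out single RelA or control libraries also ended these calls. In the RelB-labelled knockout PRICKLE3 (0.75) and DVL3 (0.56) rose and VANGL1 fell (-1.09).

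The kinesin-1 heavy chains split by paralogue. KIF5C, a form best known from neurons, was called higher in all 5 knockouts. It had 75.0, 75.9 and 76.2 normalised reads in the cRel-labelled libraries, 91.4, 80.1 and 73.5 in p50, 63.2, 68.2 and 94.3 in p52, 87.3, 89.4 and 79.4 in RelA and 97.7, 105.2 and 74.5 in RelB-labelled, against 46.3, 48.3 and 49.8 in control. All 15 knockout libraries lay above all 3 controls. The cRel-labelled libraries lay below the RelA libraries, and every other pair of knockouts overlapped. The log2 fold change was 0.64 in cRel-labelled, 0.75 in p50, 0.61 in p52, 0.81 in RelA and 0.91 in RelB-labelled, each ± 0.16 (SE), with limma adjusted p between 2.1e-05 and 0.013. Only 33 genes (0.249%) rose in all 5 knockouts, and each of these calls rests on the same 3 control libraries. The F-test found no difference among the knockouts (adjusted p = 0.35, limma), which does not show that they are equal. Under quantile normalization the p52 value was 0.32 (adjusted p = 0.10), and without cRel-labelled library 3 the cRel-labelled value had an adjusted p of 0.051.

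KIF5A, another neuronal kinesin-1, had 52.5, 35.8 and 49.0 normalised reads in p50, 25.1, 34.7 and 28.1 in p52 and 23.3, 39.2 and 28.6 in the RelB-labelled libraries, against 14.3, 14.8 and 12.9 in control. Every library of these 3 knockouts exceeded every control, and the log2 fold changes were 1.62 ± 0.26, 1.00 and 1.03 (adjusted p = 6.5e-05, 0.0031 and 0.0016, limma). The cRel-labelled and RelA libraries, at 7.32 to 16.1, overlapped control. Under quantile normalization the p52 and RelB-labelled values were 0.64 and 0.59 (adjusted p = 0.057 and 0.061). KIF5B, the ubiquitous and far more abundant form, fell in the RelB-labelled knockout (3959, 3938 and 3969, against 5162, 5059 and 4495 in control, log2 fold change -0.31, adjusted p = 0.00012).

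The kinesin-2 genes also moved apart. KIF3A and KIF3B form a heterodimer that, with the adaptor KIFAP3, drives transport in cilia and of vesicles, and KIF3C is an alternative partner of KIF3A. KIF3A had 1187, 1410 and 1457 normalised reads in the RelB-labelled and 1352, 1350 and 1326 in the p52 libraries, against 994, 941 and 835 in control (log2 fold changes 0.55 and 0.54, both called). KIF3B had 1369, 1322 and 1258 in the RelB-labelled and 1705, 1757 and 1493 in the p52 libraries, against 2053, 1980 and 1906 in control (-0.59 and -0.26, both called). In both knockouts the 2 subunit genes thus moved in opposite directions with no overlap with control. KIF3C rose in the RelB-labelled (0.53) and p50 knockouts (0.44), and the p50 value without control library 3 was 0.37 (adjusted p = 0.070, limma). Without p50 library 1 its adjusted p was 0.062, and under quantile normalization the p50 and RelB-labelled values had adjusted p of 0.097 and 0.076.

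KIFAP3 rose in all 5 knockouts. It had 3880, 3970 and 3958 normalised reads in the RelB-labelled libraries, 2529, 2813 and 2887 in p50, 2221, 2443 and 2688 in p52, 2222, 2178 and 2645 in RelA and 1982, 2223 and 2260 in cRel-labelled, against 1630, 1587 and 1775 in control. No knockout library lay as low as the highest control, and the log2 fold change was 1.24 in RelB-labelled, 0.72 in p50, 0.56 in p52, 0.49 in RelA and 0.37 in cRel-labelled. Of the 19 tested kinesin adaptors and regulators, 11 rose and 3 fell in the RelB-labelled knockout, 5 rose and 2 fell in p52, 3 rose and 1 fell in p50 (medians 0.24, 0.05 and 0.01), and KIFAP3 was the 1 that rose in the cRel-labelled and in the RelA knockout. Of all genes, 32.6% rose and 32.7% fell in RelB-labelled, 23.8% and 24.7% in p52 and 16.2% and 18.2% in p50, so the shares in p52 and p50 that rose lay near those of all genes. MAPK8IP3, which links kinesin-1 to cargo and JNK, rose by 1.25 in the RelB-labelled, 0.73 in the p52 and 0.59 in the p50 knockout. KLC4, a kinesin-1 light chain, rose by 0.56 in p52. It averaged 443 normalised reads there, 502 in RelB-labelled, 416 in p50, 292 in RelA and 275 in cRel-labelled, against 300 in control. SPAG5, a spindle protein in the same list, fell by 0.76 in the RelB-labelled and 0.33 in the p50 knockout.

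KIFC2, a minus-end directed motor, rose in the same 3 knockouts in which mitotic kinesins fell. It had 470, 528 and 469 normalised reads in the RelB-labelled, 378, 424 and 348 in the p50 and 356, 398 and 318 in the p52 libraries, against 279, 282 and 229 in control. All 9 knockout libraries exceeded the controls, and the log2 fold changes were 0.89 ± 0.11, 0.54 and 0.44 (adjusted p = 1.5e-07, 0.00047 and 0.0016, limma). KIFC3, a minus-end motor of cell junctions, was called in p52 alone (1.00, adjusted p = 0.021) at 25.1, 15.03 and 21.6 normalised reads, against 9.92, 9.86 and 9.05 in control. That call was lost without control library 3, without p52 library 1 or 3 and under quantile normalization, with adjusted p of 0.054 to 0.13.

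KIF13B, a kinesin-3 known to carry phosphoinositide-bearing vesicles, had 996, 1039 and 1005 normalised reads in the cRel-labelled, 642, 609 and 686 in the p50 and 653, 568 and 515 in the p52 libraries, against 848, 910 and 659 in control. The cRel-labelled libraries lay above all controls and the p52 libraries below them, while the p50 range overlapped control library 3. The log2 fold change was 0.34 in cRel-labelled (adjusted p = 0.041), -0.31 in p50 (0.019) and -0.47 in p52 (0.00041, limma). Control library 3 is length-shifted, and without it the cRel-labelled value was 0.21 (adjusted p = 0.30). The cRel-labelled call was lost under 10 of the 31 other settings, that one included, and these hold the removal of any 1 cRel-labelled library (adjusted p = 0.091 to 0.14). The p50 call was lost without control library 1 or 2 or p50 library 2 (adjusted p = 0.076 to 0.13). KIF1C rose in the RelB-labelled knockout (0.25, adjusted p = 0.00025), at 4668, 4631 and 4452 against 3834, 3894 and 3857 in control. KIF1B, a carrier of mitochondria and synaptic vesicle precursors, KIF13A, a recycling-endosome motor, and KIF16B were called in no knockout, with log2 fold changes between -0.25 and 0.78.

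**Figure D5:**
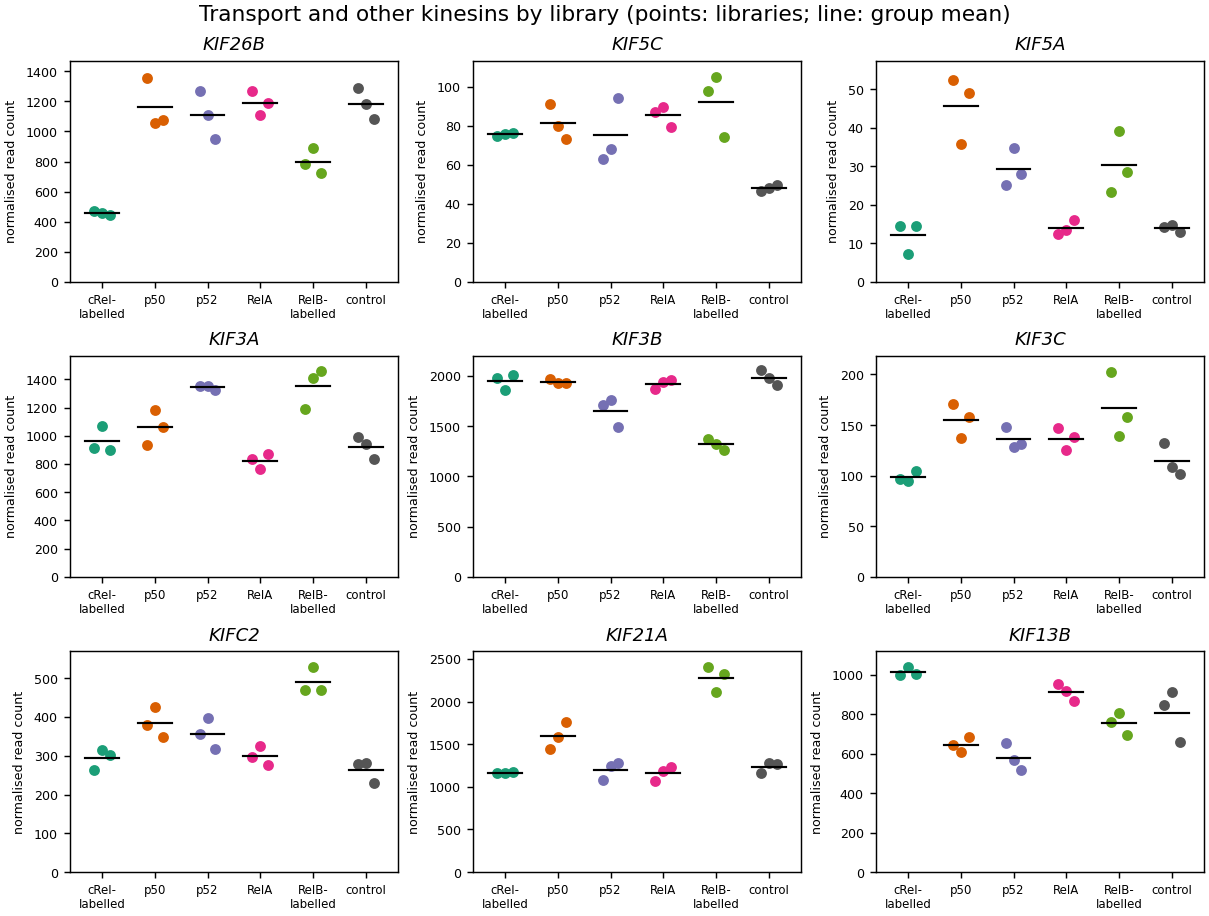
Normalised read count of 8 transport kinesins and of KIF21A in each of the 18 libraries, with the 5 knockouts left of control, a point per library and a line for the group mean. KIF26B is lowest in the cRel-labelled libraries at 472, 458 and 446, KIF5C is lowest in control at 46.3, 48.3 and 49.8, and KIF3A and KIF3B lie on opposite sides of control in the p52 and RelB-labelled groups.

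Of the 8 other kinesins, 3 rose and 4 fell in the RelB-labelled knockout, 2 fell in p52 and 2 rose in p50. Of all genes, 32.6% rose and 32.7% fell in RelB-labelled, 24.7% fell in p52 and 16.2% rose in p50. None was called in the cRel-labelled or the RelA knockout by limma, edgeR or DESeq2, with 0 and 1 at an unadjusted p under 0.05 in limma. KIF21A, which stops microtubule growth at the cell cortex, had 2402, 2117 and 2317 normalised reads in the RelB-labelled and 1443, 1583 and 1761 in the p50 libraries, against 1161, 1277 and 1270 in control. Both groups lay above all controls and apart from each other (0.88 ± 0.08 and 0.36 ± 0.08, adjusted p = 1.7e-09 and 0.0011, limma). Its paralogue KIF21B was called in no knockout against control with all libraries in the fit. KIF2A rose in the RelB-labelled knockout (0.20, adjusted p = 0.0089), and without control library 3 the value was 0.15 (adjusted p = 0.059).

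The kinesins of cilia and hedgehog signalling did not share a direction. KIF24, which holds back cilium assembly at the mother centriole, had 130, 103 and 123 normalised reads in the RelB-labelled and 143, 124 and 117 in the p52 libraries, against 230, 244 and 248 in control (-1.02 and -0.91, both called). KIF27 had 62.7, 88.9 and 80.6 in the RelB-labelled libraries, against 35.3, 40.4 and 30.4 in control (1.10 ± 0.20, adjusted p = 6.2e-05, limma). KIF6 had 1.46, 1.91 and 4.08 in the RelB-labelled libraries, against 18.7, 18.7 and 15.5 in control, the lowest log2 fold change of any kinesin (-2.49 ± 0.36, adjusted p = 2.8e-06). In each of these 3 genes the RelB-labelled libraries lay wholly outside the control range. KIF7, a scaffold of hedgehog signalling, rose in p50 (0.42) and fell in p52 (-0.50) and RelB-labelled (-0.31), and its p50 and p52 values differed in the direct test (0.93, p50 minus p52, adjusted p = 7.7e-06, limma). Its RelB-labelled call was lost without RelB-labelled library 2 or 3 or control library 1 or 2 (adjusted p = 0.055 to 0.086), and its p50 call without p50 library 2 (0.060) and under quantile normalization (0.071). KIF9, a motor of cilia and flagella, fell in the RelB-labelled knockout (-0.43, adjusted p = 0.0043).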

How the data were processed

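RNA was measured in 18 libraries of GM12878. The authors deposited normalised signal values, which are read counts divided by a size factor for each library. The submitters' processing notes name STAR 2.5.2b, featureCounts 1.5.1, DESeq2 1.14.1 and the build GRCh37. The gene annotation and the strand setting of the counting were not found in the sources, so reads of overlapping or antisense genes were not told apart. Whole reads were recovered for 100% of 308790 values (within 0.01 reads), and 1 read was worth 0.646 to 1.46 units.

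The main test was limma 3.58.1 (R 4.3.3) with an intensity trend on log2(value + 1), which understates changes of low genes, two-sided, in a single fit of the 6 group means to all 18 libraries. Genes with a mean of at least 5 over the libraries were tested, and p-values were adjusted over all 13252. All 35 kinesins passed this filter, which equals the rule for members. edgeR 4.0.16 on the recovered reads called 810, 4655, 6533, 678 and 8671 genes in the cRel-labelled, p50, p52, RelA and RelB-labelled knockouts, and limma 757, 4568, 6424, 673 and 8654. The code was tested on simulated data. Other settings were DESeq2 1.42.0, other pseudocounts, filters, scalings and designs, and each library left out. Replicates differed by more than counting error, with a mean chi-square per gene of 3.29 to 33.4 over 18 pairs. Replicate numbers were not treated as pairs.

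Exon lengths are from GENCODE 29 and promoters from RefSeq (GRCh38.p14), matched by gene identifier and symbol. The kinesins, roles and gene lists were chosen with earlier results of these data known. Named were KIF26B, the 3 highest and 3 lowest called kinesins of each knockout, the 2 most abundant of each role, the 4 with the smallest F-test p, up to 3 called genes of each list per knockout, the 5 genes most like KIF26B and the 5 subunit genes; further kinesins were named after their values were seen, so that every one is accounted for.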

Additional observations from a re-analysis of the deposited data

How the results depend on the processing

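Of 70 called results of a kinesin gene in a knockout against control, 55 stayed called with the same sign under each of the 31 other settings that tested the gene and 15 were lost under at least 1, and 0 changed sign. No mitotic kinesin rose in any knockout under any of these settings, and between 12 and 13 fell in the RelB-labelled, 11 and 12 in the p52 and 8 and 11 in the p50 knockout. Leaving out each library in turn gave 1 to 3 called kinesins in the cRel-labelled knockout, 13 to 18 in p50, 20 to 23 in p52, 1 to 2 in RelA and 27 to 30 in RelB-labelled, 29 to 31 in the F-test and 181 to 200 over the pairs of knockouts. Without cRel-labelled library 3 only KIF26B remained called there. Without p52 library 1 or 3, 2 kinesins were called in the RelA knockout, KIF5C and KIF21B, and without control library 2 they were KIF5C and KIF1B. With genes under a mean of 100 left out the RelA count was 0, because KIF5C was not tested. With a replicate block it was 2, KIF5C and KIF21B. That block gave 3, 18, 23 and 28 called kinesins in the cRel-labelled, p50, p52 and RelB-labelled knockouts. Same-numbered knockout and control libraries deviated together, with all 3 correlations over 0.1, in 0 of 5 knockouts. Of the 10 pairs of knockouts 1 did so, cRel-labelled and p50 (0.13, 0.12 and 0.11). For 13 of 18 libraries the best correlation with a library of another group was with one of the same number. The 3 numbers were equally common among the libraries compared, so this is more than an even share. Its cause was not tested. The cause of the lost calls was not tested. Genes with few reads, such as KIF4B, KIFC3, KIF13A and KIF6, carry standard errors of 0.35 to 0.50 on the log2 scale. Leaving out the 3 length-shifted libraries and counting motifs in other promoter windows were chosen after seeing the data.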

Other observations

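Tubulins are the subunits of the tracks on which kinesins run. Of 16 tested, 10 fell and 2 rose in the RelB-labelled, 8 fell and 2 rose in the p52, and 7 fell in the p50 knockout, where 32.7%, 24.7% and 18.2% of all genes fell. Their medians were -0.91, -0.37 and -0.23 on the log2 scale. TUBB4B, a beta tubulin, had 2779, 2863 and 2934 normalised reads in the RelB-labelled, 6432, 5840 and 5698 in the p52 and 7391, 6338 and 6223 in the p50 libraries, against 10221, 10666 and 11544 in control. The 3 groups lay wholly below control, and TUBB4B fell by 1.92, 0.85 and 0.70 on the log2 scale. TUBA1C and TUBA1B, alpha tubulins, fell by 0.72 and 0.83 in p52 and by 0.68 and 0.72 in p50. In the RelB-labelled libraries they averaged 997 and 3953 normalised reads, against 2562 and 11583 in control. TUBB2A and TUBA4A fell by 2.08 and 1.28 in the RelB-labelled knockout. TUBB2A averaged 125 in p52 and 134 in p50, against 190 in control, and TUBA4A 2005 and 2152, against 2897. Tubulin genes have close copies, so reads may be shared among them. In the cRel-labelled knockout TUBB2B rose by 0.71. No tubulin was called in the RelA knockout by limma, 1 fell by edgeR and by DESeq2, and 2 had an unadjusted p under 0.05.

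Dynein and dynactin, which move toward the minus end against most kinesins, were counted in the same way. Of 28 genes tested, 7 rose and 11 fell in the RelB-labelled, 6 rose and 9 fell in the p52 and 2 rose and 9 fell in the p50 knockout. Of all genes, 32.6% rose and 32.7% fell in RelB-labelled, 23.8% and 24.7% in p52 and 16.2% and 18.2% in p50, and the medians of the 28 were -0.07, -0.11 and -0.02. SPDL1, which brings dynein to kinetochores, fell by 0.90, 0.69 and 0.39 in these knockouts, and ACTR1A, the filament subunit of dynactin, by 0.63, 0.43 and 0.27. DYNC1LI1, a light intermediate chain, fell by 0.58 in the RelB-labelled knockout, and DYNLL1, a light chain, by 0.37 in p52 and 0.35 in p50. DYNLL1 averaged 2824 normalised reads in RelB-labelled, against 3904 in control. DYNC1LI1 averaged 1333 in p52 and 1377 in p50, against 1607. In the cRel-labelled knockout NIN, a centrosomal anchor, rose by 0.34, with an adjusted p of 0.057 (limma) without control library 3. In the RelA knockout ACTR1B fell by 0.25, a call lost under 6 of the 31 other settings (adjusted p = 0.056 to 0.14).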
